A study of Mus musculus with 9 samples.

Results

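Expression of 10 imprinted genes of postnatal growth, H19, Igf2, Dlk1, Meg3, Rian, Cdkn1c, Peg3, Plagl1, Grb10 and Mest, was followed in the quadriceps femoris, a thigh muscle, of 9 female mice. The genes were taken from a list of imprinted genes known to decline as juvenile growth slows, and every probe set that the platform annotation maps to one of them was used. This gave 33 of the 45101 probe sets on the array, of which 20 lay above a log2 value of 5 in at least 3 of the 9 arrays and so passed the filter on dim probe sets. Each of the 10 genes kept at least 1 probe set, and 9 of them were among the 9697 genes tested. The remaining gene, H19, is read by a probe set that the annotation assigns to H19 and to Mir675 together, and it was tested among probe sets only.

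All 9 mice carried the same strain label, C57Bl/6 HT transgenic, a line in which a self MHC class I protein is made in skeletal muscle once doxycycline is withdrawn. Late mice (n = 3) came off doxycycline at 35 days of age and were killed at 50 days per their labels. Early mice (n = 3) came off the drug at 21 days and were killed at 35 days, after 2 weeks of transgene expression. Control mice (n = 3) received doxycycline throughout and were also killed at 35 days. The treatment protocol describes the controls as littermates with a single transgene and gives 49 to 50 days for the late mice, so a difference in genotype between controls and induced mice cannot be told apart from induction. The promoter that drives the transgene is not given in the sources used here. Late mice were older than both other groups, and no uninduced mice of their age were profiled in these 9 samples, so age and late induction cannot be told apart either. The MHC class I gene H2-K1, the check of the labels here, averaged 13.87 ± 0.66 in late, 14.66 ± 0.03 in early and 10.52 ± 0.34 in control muscle (log2 expression, SD, n = 3); it was higher in both induced groups than in controls (limma, adjusted p = 0.00446 and 0.00115). The values given are the deposited log2 expression values, and differences are given ± SE.

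Imprinted genes are expressed from only the maternal or only the paternal copy, and many of them set the rate of growth before and after birth. In the mouse, Igf2, Dlk1, Mest, Peg3 and Plagl1 are expressed from the paternal copy and on balance promote growth. H19, Cdkn1c, Grb10, Meg3 and Rian are expressed from the maternal copy, and the first 3 of these restrain growth. Several share regulation: Igf2 and H19 are neighbours with common enhancers, and Dlk1, Meg3 and Rian lie in another imprinted cluster. In the RefSeq table of assembly GRCm38.p6, 0 protein-coding genes lie between Igf2 and H19, 0 between Dlk1 and Meg3 and 0 between Meg3 and Rian. In skeletal muscle, these genes are known from the fetal and juvenile tissue and from satellite cells, the stem cells of the fibres. H19, Meg3 and Rian are long non-coding RNAs.

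The annotated spans of 5 of the 10 genes hold microRNA hairpins in that assembly: 1 each in H19, Igf2, Meg3 and Mest, and 3 in Rian. The arrays read the host transcripts and not the mature microRNAs. The mature microRNAs of H19 are shown because the H19 probe set carries both names, and those of Mest because H19 and Mest were lowest in the same mouse. They are from RefSeq (GRCm38.p6), 5′ to 3′, with the seed (bases 2 to 8) in capitals, and the 4 seeds differ from one another. The miR-675 arms lie on the minus strand at chr7:142577112-142577133 (5p) and chr7:142577078-142577099 (3p), and the miR-335 arms on the plus strand at chr6:30741314-30741336 (5p) and chr6:30741354-30741375 (3p).
mmu-miR-675-5p: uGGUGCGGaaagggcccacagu
mmu-miR-675-3p: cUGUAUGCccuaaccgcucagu
mmu-miR-335-5p: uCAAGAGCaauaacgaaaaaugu
mmu-miR-335-3p: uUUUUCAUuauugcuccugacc

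RefSeq promoter windows of 300 bases, mostly upstream of an annotated start, were found for 8 of the 10 genes, 15 windows in all; H19 and Cdkn1c had none in the table. Each window was searched on both strands for GGGGCCCC, the palindromic element bound by the zinc finger protein Plagl1, and for CANNTG, the E-box read by myogenic factors; each motif reads the same on both strands. GGGGCCCC occurred in 1 of the 15 windows, that of Peg3, against 1.08% of all 32851 promoter windows. CANNTG occurred in 9 of the 15 windows, in 6 of the 8 genes, against 72.3% of all windows, and 2 of the Mest windows overlap almost fully. With all arrays, Rian had the lowest late minus control difference of the tested genes of this set, and Mest the next lowest. Peg3 holds the Plagl1 element. The windows shown for these genes are that of Rian, the first of Mest and that of Peg3. They lie at chr12:109603695-109603994 (plus strand), chr6:30733256-30733555 (plus strand) and chr7:6730370-6730669 (minus strand) of GRCm38.p6. They are written 5′ to 3′ on the gene's strand, with the motifs in capitals.
Rian promoter: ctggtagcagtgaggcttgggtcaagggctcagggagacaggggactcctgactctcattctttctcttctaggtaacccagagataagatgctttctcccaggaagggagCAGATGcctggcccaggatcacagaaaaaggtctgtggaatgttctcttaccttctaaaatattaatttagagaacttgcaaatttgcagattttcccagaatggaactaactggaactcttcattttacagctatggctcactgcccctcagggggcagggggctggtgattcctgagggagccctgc
Mest promoter: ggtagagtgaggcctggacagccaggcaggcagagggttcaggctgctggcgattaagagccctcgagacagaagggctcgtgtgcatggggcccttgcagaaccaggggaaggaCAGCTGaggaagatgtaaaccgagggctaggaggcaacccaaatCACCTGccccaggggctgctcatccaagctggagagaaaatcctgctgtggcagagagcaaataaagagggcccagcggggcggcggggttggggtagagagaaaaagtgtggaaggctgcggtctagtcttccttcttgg
Peg3 promoter: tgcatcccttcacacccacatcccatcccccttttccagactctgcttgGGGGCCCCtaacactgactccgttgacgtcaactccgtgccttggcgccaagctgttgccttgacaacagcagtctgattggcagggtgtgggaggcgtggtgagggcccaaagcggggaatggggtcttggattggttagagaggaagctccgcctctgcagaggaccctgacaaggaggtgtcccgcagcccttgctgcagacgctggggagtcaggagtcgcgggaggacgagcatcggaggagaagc

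Late, early and control muscle were first compared over the whole set. In late muscle all 9 genes tested had lower means than in controls, with a median log2 difference of -1.47, a 2.77-fold lower level, where the median over all genes tested was 0.01. In early muscle, of the same age as the controls, 8 of 9 had lower means, with a median of -0.62 against -0.03 over all genes. Late muscle was also below early muscle for 9 of 9 genes, with a median of -0.85 against 0.03 over all genes. The genes were picked for a decline in growing animals and with earlier results of these data in view, so these counts describe the set and are no test of it. In whole muscle, fewer cells of a type and less RNA per cell cannot be told apart. No member passed the test over all genes in any of the 3 comparisons with all arrays: by limma with Benjamini-Hochberg adjustment, 0 of 9 were called in late against control, where 0.206% of all genes were, 0 in early against control, where 1.19% were, and 0 in late against early, where 11.5% were. With arrays weighted by their fit, 6 of 9 members were called in late against control mice (Igf2, Dlk1, Rian, Cdkn1c, Plagl1 and Mest), where 10.7% of all genes were called in either direction. The same weights called 2 in early against control mice (Rian and Cdkn1c), where 34.4% of all genes were called, and 5 in late against early mice (Igf2, Dlk1, Cdkn1c, Peg3 and Mest), where 36.4% were; all of these members were lower. The weights were 0.288, 1.629 and 1.301 in late mice 1, 2 and 3, 0.376, 2.837 and 0.238 in early mice and 0.728, 3.389 and 2.615 in control mice. The weighted early mean thus rested mostly on early mouse 2. Estimation of the weights stopped before full convergence. Without late mouse 1 the members called numbered 1, 1 and 2 in the 3 comparisons, beside 0.0928%, 1.14% and 3.03% of all genes. Without early mouse 3 they numbered 1 in each comparison, beside 0.608%, 18.1% and 30.5% of all genes, so 1 of 9 is below the share of all genes in early against control and in late against early mice. Leaving out any other single array let 0 members pass. At an unadjusted p under 0.05, 7 members were lower in late against control (8.44% of all genes), 3 in early against control (9.89%) and 2 in late against early (15.8%). The groups did not overlap, with the first group lower, for 7 members in late against control (14.9% of all genes), 4 in early against control (13.9%) and 3 in late against early (13.7%). The first and second comparisons share the 3 control arrays, and late against early shares the late arrays with late against control. With 3 arrays a side, the smallest p an exact permutation test can give is 0.1.

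**Figure D1:**
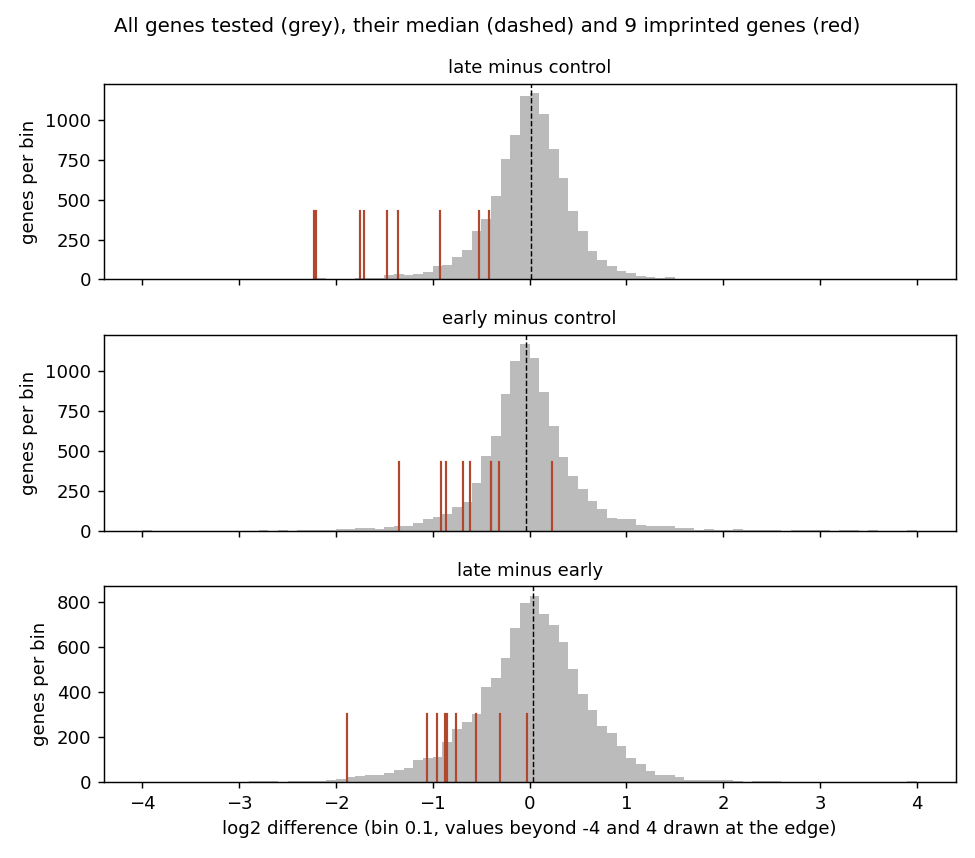
Histograms of the log2 difference of the 9697 genes tested (grey, genes per bin of 0.1) for late minus control, early minus control and late minus early, with the median of all genes dashed and the 9 imprinted genes as red lines. The red lines lie left of the dashed line in all panels except for 1 gene, Peg3, in early minus control.

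Among the paternally expressed genes, Igf2, the fetal insulin-like growth factor, stood at 9.73, 8.63 and 8.45 in late mice 1, 2 and 3, at 9.37, 10.15 and 8.96 in early mice 1, 2 and 3, and at 10.53, 10.497 and 10.19 in control mice 1, 2 and 3. Every late and every early array lay below every control array, and the late and early arrays overlapped. Igf2 differed by -1.47 ± 0.38 in late against control mice (adjusted p = 0.128), by -0.91 ± 0.38 in early against control mice (adjusted p = 0.25) and by -0.56 ± 0.38 in late against early mice (adjusted p = 0.322). A further Igf2 probe set lay between 4.07 and 4.35 on all arrays, under the filter's floor of 5, and was not tested.

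Dlk1 encodes a membrane protein related to the Notch ligands that is cut to a soluble form, holds back fat cell formation and supports muscle growth. It stood at 7.16, 4.68 and 5.52 in late mice 1, 2 and 3, at 6.44, 7.42 and 6.69 in early mice and at 7.58, 7.65 and 7.40 in control mice. Late mouse 1 was close to the controls and late mice 2 and 3 were far below, with late 2 under the floor. Dlk1 differed by -1.76 ± 0.54 in late against control mice (adjusted p = 0.171), where the groups did not overlap, by -0.69 ± 0.54 in early against control mice (adjusted p = 0.508) and by -1.07 ± 0.54 in late against early mice (adjusted p = 0.196). With values under 5 set to 5 the late minus control difference was -1.65, and it was -2.44 without late mouse 1 and -1.21 without late mouse 2. Without late mouse 1 the late minus early difference was -1.75 and passed (adjusted p = 0.0398). The other Dlk1 probe set lay under the floor on all 9 arrays.

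Mest, which encodes a membrane protein of the hydrolase family and marks tissue that is still expanding, stood at 4.85, 7.49 and 7.13 in late mice, at 8.57, 8.93 and 7.65 in early mice and at 8.53, 8.53 and 9.04 in control mice. All late arrays were below all early and all control arrays, late mouse 1 by the most, and early mice 1 and 2 lay within the control range. The late minus control difference was -2.20 ± 0.63 (4.61-fold lower, adjusted p = 0.153), the late minus early difference -1.89 ± 0.63 (3.71-fold lower, adjusted p = 0.0794) and the early minus control difference -0.31 ± 0.63 (adjusted p = 0.814). The late minus control difference was -1.38 without late mouse 1, against -2.20 with it. Without early mouse 3 the late minus early difference was -2.26 and passed (adjusted p = 0.0402).

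Peg3, a zinc finger protein of proliferating and stem cells, was read by 3 probe sets that passed, and these differed. Its brightest set stood at 9.95, 9.79 and 8.62 in late mice, at 10.39, 10.61 and 9.65 in early mice and at 9.95, 10.39 and 9.60 in control mice. Late mouse 3 lay below the control range and early mouse 2 above it. This set differed by -0.53 ± 0.39 in late against control mice (adjusted p = 0.519), by 0.23 ± 0.39 in early against control mice (adjusted p = 0.776) and by -0.76 ± 0.39 in late against early mice (adjusted p = 0.203). Without late mouse 3 the late minus control difference was -0.11.

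On probe set 1417355_at Peg3 stood at 9.03, 7.99 and 7.08 in late mice, against 10.55, 9.59 and 9.84 in early mice, and the late arrays were all below the early ones. This set was lower in late than in early muscle by 1.96 on the log2 scale (-1.96 ± 0.51, 3.88-fold lower), which passed in the limma fit over 17953 probe sets (adjusted p = 0.0462), a call made for 9.99% of them. It did not pass against controls, which stood at 9.78, 9.91 and 8.75 (-1.45 ± 0.51, adjusted p = 0.227). On 1417356_at the late minus early difference was only -0.15 ± 0.38 and the late minus control difference was 0.29 ± 0.38, above 0. The call on 1417355_at held on leaving out late 1 or early 3 and was lost on leaving out any of the other arrays (adjusted p between 0.0408 and 0.144 over the 9 fits). Probe sets of a gene read different stretches of its transcripts, and which of them represents Peg3 was not tested.

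Plagl1, also called Zac1, a zinc finger transcription factor known to regulate other imprinted genes, stood at 9.73, 10.06 and 9.33 in late mice, at 9.90, 10.59 and 9.55 in early mice and at 10.39, 10.86 and 10.66 in control mice. The late arrays all lay below the controls, and early mouse 2 was the only early array inside the control range. It differed by -0.93 ± 0.29 in late against control mice (adjusted p = 0.171), by -0.62 ± 0.29 in early against control mice (adjusted p = 0.286) and by -0.31 ± 0.29 in late against early mice (adjusted p = 0.468). The passing probe sets of Plagl1 and Dlk1 end in _x_at and _s_at, names given to sets whose probes can also match other transcripts. The brightest Meg3 set, 1439380_x_at, and the Meg3 set 1436713_s_at, both described below, bear these endings too. The other 2 Plagl1 sets lay under the floor on all arrays.

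**Figure D2:**
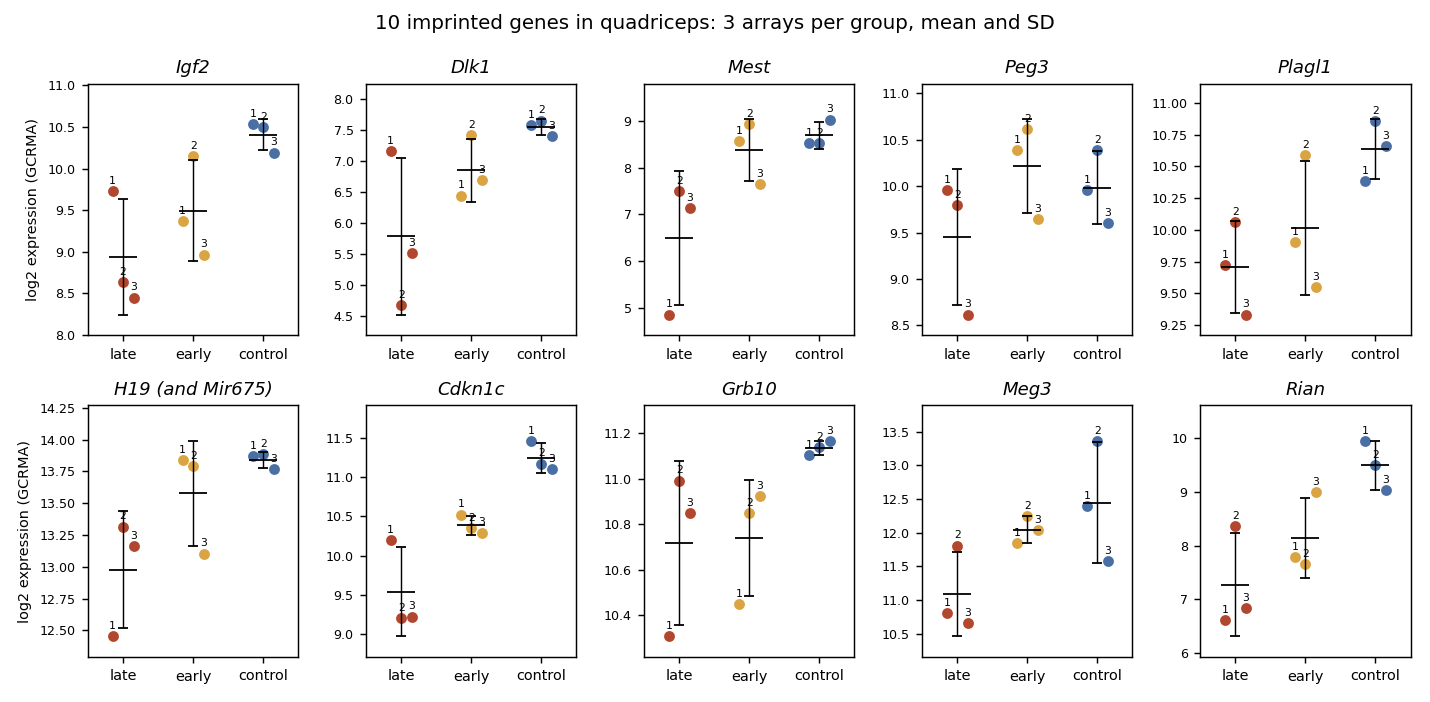
Log2 expression of the 10 imprinted genes in late, early and control quadriceps, 1 point per mouse with its replicate number, and the mean and SD of 3 mice in black; each panel has its own vertical axis, which does not start at 0. Every Cdkn1c point of the late group lies below every early point, and every early point below every control point.

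Among the maternally expressed genes, Cdkn1c, which encodes an inhibitor of cyclin-dependent kinases that holds cells out of the cycle, showed a graded pattern. It stood at 10.20, 9.20 and 9.22 in late mice, at 10.52, 10.35 and 10.29 in early mice and at 11.47, 11.18 and 11.10 in control mice. The 3 groups did not overlap, in the order late, early, control; 24 of the 9697 genes tested (0.247%) had all arrays in this order, and Cdkn1c was the only one of the 9 tested members among them. The means of neighbouring groups were set apart by more than their SDs, which were 0.57 in late, 0.12 in early and 0.19 in control mice. Late mouse 1 (10.20) nevertheless lay close below early mouse 3 (10.29).

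Cdkn1c differed by -1.71 ± 0.26 in late against control mice (3.27-fold lower, adjusted p = 0.0519), just outside the threshold. It differed by -0.86 ± 0.26 in early against control mice (adjusted p = 0.162) and by -0.85 ± 0.26 in late against early mice (adjusted p = 0.0659). The late minus early difference passed when the replicate number, by which late and early arrays deviated together, was added as a block (-0.85, adjusted p = 0.0415). Against controls, the late difference passed with arrays centred on their medians (adjusted p = 0.043), after quantile normalization (adjusted p = 0.0428), with values under 5 set to 5 (adjusted p = 0.0473) and with a trended, robust spread (adjusted p = 0.0497). It did not pass without a filter (adjusted p = 0.0733), over probe sets (adjusted p = 0.0652) or with the replicate block (adjusted p = 0.0597). Nor did it pass with only the 2 groups compared (adjusted p = 0.0735). Over 13 fits that left out no single array, main fit included, it passed in 5, among them that with array weights. The late minus early difference passed in 2 of these 13. Without late mouse 1, all 3 Cdkn1c differences passed: -2.04 in late against control, -0.86 in early against control and -1.18 in late against early mice (adjusted p = 0.00742, 0.0368 and 0.0213 in that order). Without early mouse 3 the late minus control difference passed (adjusted p = 0.0438). Leaving out any other single array, the late minus control difference did not pass (adjusted p up to 0.253). Without any array other than late mouse 1, the late minus early difference did not pass (adjusted p up to 0.182). The same held for the early minus control difference (adjusted p up to 0.3785).

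H19 encodes a long non-coding RNA that is abundant in fetal and regenerating muscle, and its probe set is the one also annotated to Mir675. It stood at 12.45, 13.32 and 13.16 in late mice, at 13.84, 13.79 and 13.10 in early mice and at 13.87, 13.89 and 13.77 in control mice. The late arrays all lay below the controls, late mouse 1 the furthest. Early mice 1 and 2 lay in the control range while early mouse 3 did not. In the limma fit over probe sets it differed by -0.87 ± 0.27 in late against control mice (1.82-fold lower, adjusted p = 0.185), by -0.26 ± 0.27 in early against control mice (adjusted p = 0.637) and by -0.60 ± 0.27 in late against early mice (adjusted p = 0.154). In late against control mice 0.134% of probe sets were called and in early against control mice 0.797%. Without early mouse 3 the late minus early difference was -0.84 and passed (adjusted p = 0.0411).

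Grb10 encodes an adaptor that binds the insulin and insulin-like growth factor receptors and dampens their signals. It stood at 10.31, 10.99 and 10.85 in late mice, at 10.45, 10.85 and 10.92 in early mice and at 11.10, 11.14 and 11.16 in control mice. Both induced groups lay below the narrow control range and overlapped each other fully, with mouse 1 lowest in each. The differences were -0.42 ± 0.20 in late against control mice (adjusted p = 0.327), -0.39 ± 0.20 in early against control mice (adjusted p = 0.325) and -0.02 ± 0.20 in late against early mice (adjusted p = 0.945). The control SD was 0.03, against 0.36 in late and 0.26 in early mice, so the SE shared by the 3 groups is wider than the control spread. A dimmer Grb10 probe set differed by -0.50 ± 0.31 in late against control mice and by 0.18 ± 0.31 in early against control mice.

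Meg3 and Rian are long non-coding RNAs read from one cluster downstream of Dlk1. Meg3 was read by 5 probe sets that passed, and all of these had lower late than control means. Its brightest set stood at 10.80, 11.81 and 10.66 in late mice, at 11.84, 12.24 and 12.04 in early mice and at 12.40, 13.36 and 11.58 in control mice. The controls were spread more widely than the induced groups, with control 3 inside the late range. This set differed by -1.36 ± 0.44 in late against control mice (adjusted p = 0.193), by -0.40 ± 0.44 in early against control mice (adjusted p = 0.643) and by -0.95 ± 0.44 in late against early mice (adjusted p = 0.165). Without control 2, the highest array, the early minus control difference was 0.05.

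Over the 5 Meg3 sets the late minus control difference ran between -1.76 and -1.10 and the early minus control difference between -0.56 and -0.08. Set 1436713_s_at stood at 7.97, 8.52 and 7.42 in late mice, against 9.89, 9.67 and 9.41 in early mice. This set was lower in late than in early muscle (-1.69 ± 0.45, 3.22-fold lower, adjusted p = 0.0499 in the fit over probe sets), at the edge of the threshold. The call held on leaving out early 3 or control 3 and was lost on leaving out any other array (adjusted p between 0.0368 and 0.147 over the 9 fits). The other 6 Meg3 probe sets reached a log2 value above 5 on at most 2 arrays and were not tested.

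Rian, a host of small RNAs, had the lowest late minus control difference of the tested members with all arrays, next to that of Mest. Without late mouse 1 the differences of Dlk1 (-2.44) and Cdkn1c (-2.04) were below that of Rian (-1.89), and with array weights those of Dlk1 (-2.30) and Cdkn1c (-1.88) were below it (-1.78). It stood at 6.61, 8.37 and 6.83 in late mice, at 7.79, 7.65 and 8.99 in early mice and at 9.94, 9.50 and 9.03 in control mice. All late and all early arrays lay below all control arrays, although early mouse 3 came close to control 3, and late mouse 2 was above 2 of the early mice. Rian differed by -2.22 ± 0.51 in late against control mice (4.67-fold lower, adjusted p = 0.11), by -1.35 ± 0.51 in early against control mice (2.55-fold lower, adjusted p = 0.224) and by -0.87 ± 0.51 in late against early mice (adjusted p = 0.256). Without early mouse 3 the early minus control difference was -1.77 and passed (adjusted p = 0.0452).

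The 4 Rian probe sets gave late minus control differences between -2.28 and -2.01 and early minus control differences between -1.35 and -0.51. On 1440001_at and 1428055_at every late array lay under the floor of 5, so these sets passed the filter only through the early and control arrays. With values under 5 set to 5, their late minus control differences were -1.07 and -0.92, at least 2.10-fold and 1.89-fold lower.

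**Figure D3:**
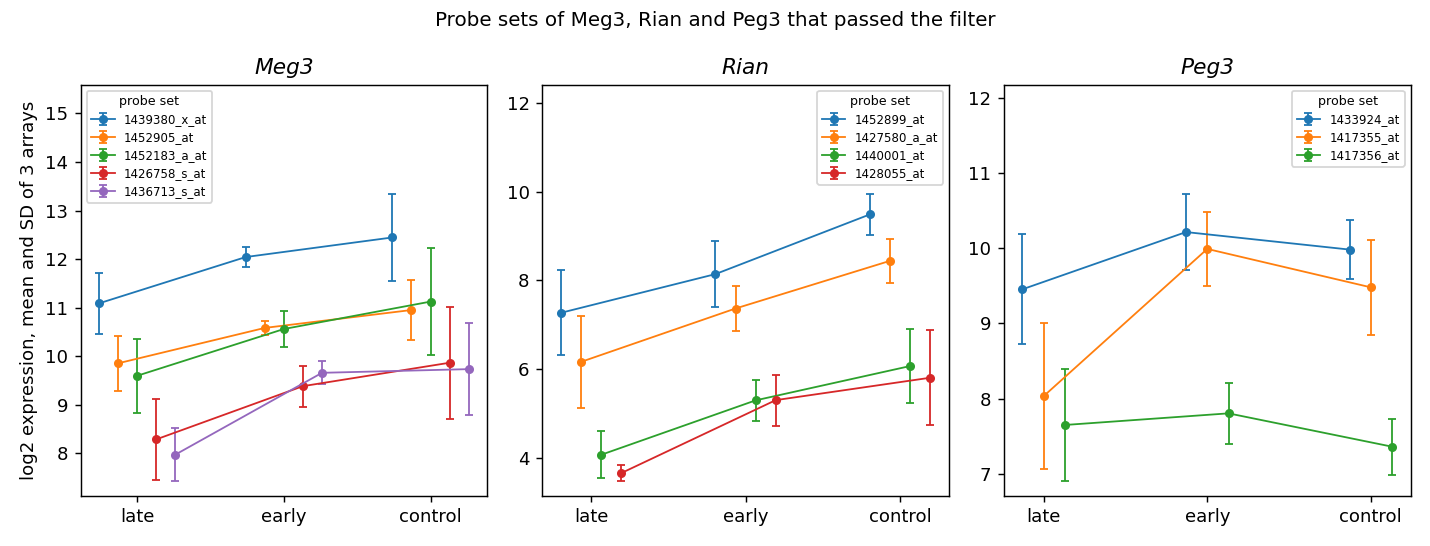
Mean and SD of 3 arrays in late, early and control muscle for each probe set of Meg3 (5), Rian (4) and Peg3 (3) that passed the filter, on the log2 scale; points are shifted sideways for legibility and lines join the means of 1 probe set. All Meg3 and Rian sets have late lowest, while the Peg3 sets differ, 1417355_at having the widest gap between late and early and 1417356_at almost none.

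Across mice the members did not move as a block. Set against the control mean, the median member lay at -0.98, -0.88 and -1.68 in late mice 1, 2 and 3, and at -0.71, -0.16 and -0.80 in early mice 1, 2 and 3. All 10 genes were below the control mean in each late mouse, and 9, 8 and 10 of 10 in early mice 1, 2 and 3. Early mouse 2 was the closest of the induced mice to the controls, with 4 of 10 genes below the lowest control array, against 10 of 10 in late mouse 3.

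The lowest array differed between genes. H19, Mest, Grb10 and Rian were lowest of all 9 in late mouse 1, Dlk1 and Cdkn1c in late mouse 2, and Igf2, Meg3, Peg3 and Plagl1 in late mouse 3. Late mouse 1 thus held the lowest Mest, at -3.85 relative to the control mean, while its Dlk1 was at -0.39 and its Igf2 at -0.67. Late mouse 2 held the lowest Dlk1, at -2.86, with Grb10 at -0.14. The neighbours Igf2 and H19 were therefore lowest in different mice, and so were Dlk1, Meg3 and Rian. Values of 1 mouse come from 1 RNA sample and 1 array.

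**Figure D4:**
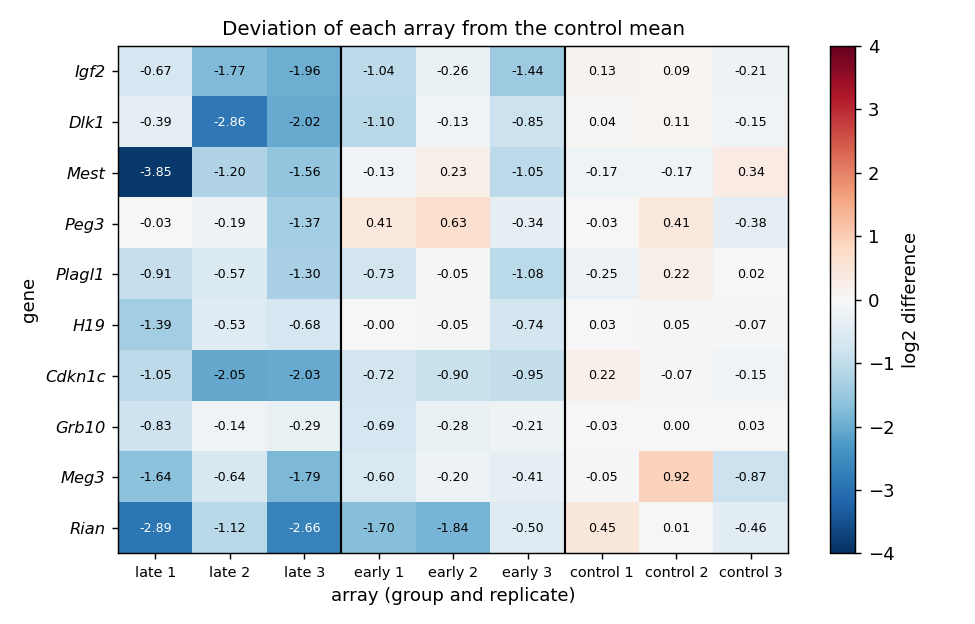
Log2 difference of each array from the mean of the 3 control arrays for the 10 genes (rows) in late, early and control mice 1 to 3 (columns); blue is lower and red higher. All late cells are below 0, but Peg3 in late 1 (-0.03) and Grb10 in late 2 (-0.14) are close to 0 and barely coloured. The darkest cells, Mest and Rian in late 1 and Dlk1 in late 2, are spread over 2 late columns.

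With all arrays, the tested members were ordered by size as follows. In late against control mice Rian and Mest had the lowest values (-2.22 and -2.20), followed by Dlk1, Cdkn1c, Igf2, Meg3 and Plagl1, with Peg3 and Grb10 nearest 0 (-0.53 and -0.42). Gaps between neighbours in this order were about the size of their SEs or smaller and were not tested. In early against control mice Rian was again lowest, ahead of Igf2 and Cdkn1c, and Mest lay near 0. For Mest the late minus early difference made up most of the late minus control difference, while for Grb10 it was close to 0; whether the genes differ from each other in this was not tested.

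**Figure D5:**
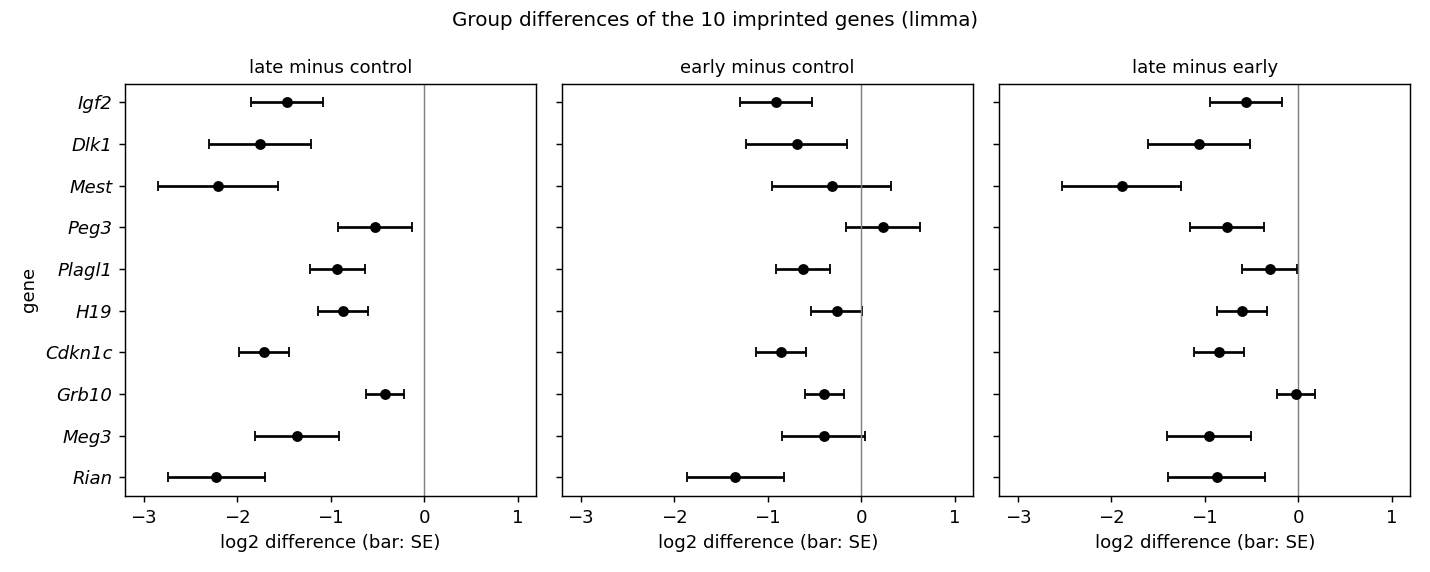
Log2 difference and SE from limma for the 10 imprinted genes in late minus control, early minus control and late minus early muscle, 3 arrays per group; all values are from the fit over probe sets, whose differences are the same as in the fit over genes and whose SEs are slightly wider. In late minus control all points lie left of 0; in early minus control Peg3 lies right of 0; in late minus early Grb10 lies at 0 and Mest furthest left.

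Further imprinted genes were counted in the same way. Beside the counts of this list and of the lists below, 0.206% of all genes were called in late against control mice. In early against control mice 1.19% were called, and in late against early mice 11.5%. Of 75 further imprinted genes listed, 36 were tested; their median difference was -0.07 in late against control mice, where 0 passed and 22 were below 0. In early against control mice 1 of 36 passed, H13, a signal peptide peptidase, which was higher (0.77 ± 0.14, adjusted p = 0.0465), and the median was -0.07. In late against early mice 2 were lower, Tssc4 (-1.70 ± 0.23, adjusted p = 0.00792) and H13 (-1.18 ± 0.14, adjusted p = 0.00578), and 2 were higher, Ago2, the slicer of RNA interference (0.64 ± 0.14, adjusted p = 0.0274), and Kcnq1ot1 (1.22 ± 0.29, adjusted p = 0.0354), with a median of -0.07. Calls in this list were thus near the share of all genes called in that comparison.

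Kcnq1ot1 is the paternally expressed antisense RNA that silences Cdkn1c on the same chromosome copy. It averaged 9.19 in late, 7.97 in early and 8.20 in control mice. Late mouse 1 had the highest Kcnq1ot1 value, 9.84, and also the highest Cdkn1c value of the late mice, and a relation between the 2 genes was not tested. The late minus control difference of Kcnq1ot1 of 0.99 ± 0.29 did not pass (adjusted p = 0.157). Airn, the antisense RNA that silences the paternal Igf2r, differed by 0.58 ± 0.16 in late against control mice (adjusted p = 0.142). Igf2r, the maternally expressed receptor that clears Igf2, differed by -0.95 ± 0.41 (adjusted p = 0.282). Mirg, a non-coding RNA further along the cluster of Meg3 and Rian, differed by -0.51 ± 0.14 in late against control mice (adjusted p = 0.136) and by -0.49 ± 0.14 in early against control mice (adjusted p = 0.14).

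Of 18 growth genes that decline in young animals but are not imprinted, 9 were tested. In late against control mice 0 passed and 6 were below 0, with a median of -0.67; the growth factors Mdk and Ptn differed by -1.54 ± 0.31 (adjusted p = 0.0938) and -1.34 ± 0.34 (adjusted p = 0.128). In early against control mice 0 passed, with a median of -0.21. In late against early mice Mdk (-1.71 ± 0.31, adjusted p = 0.0195) and Sox4, a transcription factor of progenitor cells (-1.61 ± 0.43, adjusted p = 0.0455), were lower and the matrix protein Smoc2 was higher (0.89 ± 0.17, adjusted p = 0.0227), with a median of -0.09.

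The insulin-like growth factor axis, in which Igf2 and Grb10 act, had 18 of 25 listed genes tested. In late against control mice 0 passed, with a median of -0.23, and Igf1 differed by -1.09 ± 0.42 (adjusted p = 0.245). In early against control mice 1 was lower, Cish, a STAT5-induced brake on growth hormone signals (-2.78 ± 0.49, adjusted p = 0.0388), 15 of 18 were below 0 and the median was -0.49. The growth hormone receptor Ghr differed by -1.002 ± 0.27 there (adjusted p = 0.137) and Igf1 by -1.26 ± 0.42 (adjusted p = 0.184). In late against early mice Cish (4.02 ± 0.49, adjusted p = 0.00578), Ghr (1.15 ± 0.27, adjusted p = 0.0354) and the kinase subunit Pik3r1 (1.36 ± 0.37, adjusted p = 0.0492) were higher, with a median of 0.39, where the 9 imprinted members had a median of -0.85. All early arrays of Cish lay under the floor of 5, with a mean of 3.68. Cish thus passed the filter only through the late and control arrays, so its differences and calls are a description only.

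Partners and targets of the members, among them the kinases and cyclins that Cdkn1c inhibits and the Notch receptors, had 13 of 19 tested. In late against control mice 0 passed, with a median of -0.54; cyclins Ccnd1 and Ccnd2 differed by -1.40 ± 0.43 and -0.81 ± 0.23, and Cdk4 by -0.65 ± 0.20 (adjusted p = 0.173, 0.15 and 0.173 in that order). In early against control mice 0 passed, with a median of -0.14. In late against early mice Cdk4, the kinase that D cyclins activate (-0.91 ± 0.20, adjusted p = 0.0313), and Traf2, a signalling adaptor (-1.46 ± 0.35, adjusted p = 0.0358), were lower, with a median of -0.39.

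The 5 genes whose values over the 9 arrays were most like the mean of the 9 tested members were Col16a1, a collagen chain (Pearson r = 0.969), Kcne1l, a potassium channel subunit (r = 0.952), Mymk, which fuses myoblasts (r = 0.937), Egfl7, an endothelial matrix protein (r = 0.934), and Sema4c, a semaphorin of muscle cells (r = 0.93). These r describe the 9 arrays, which share the 3 group means, and Cdkn1c, the member closest to the mean of which it is part, had r = 0.886. Because the genes were chosen for following a mean that was lowest in late and highest in control mice, their group levels are a description and no test is given. Col16a1 averaged 6.91 ± 0.09 in late, 7.503 ± 0.11 in early and 7.94 ± 0.22 in control mice (SD, n = 3). Mymk averaged 3.95 ± 0.08 in late, 5.13 ± 0.28 in early and 6.55 ± 0.29 in control mice. All late arrays of Mymk, Kcne1l and Sema4c lay under the floor of 5, so these genes passed the filter only through the early and control arrays.

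Marker genes of the cell types in whole muscle were set beside these values. All 12 markers of muscle fibres were measured, 11 of them above the floor on all arrays, and the log2 of their summed level lay between 18.82 and 18.96 in late, 18.77 and 18.82 in early and 18.78 and 18.91 in control mice. The brightest markers weigh most in such a sum, so it does not show fibre type. Myh7, the myosin of slow fibres, varied widely between mice. It stood at 13.37, 12.28 and 5.63 in late mice 1, 2 and 3, at 10.96, 2.78 and 2.79 in early mice and at 7.10, 2.81 and 9.55 in control mice. The 10 measured markers of mesenchymal progenitors and fibroblasts, of 12 listed, summed to 15.82 to 16.22 in late, 16.26 to 16.57 in early and 16.42 to 16.71 in control mice. The late sums lay below those of both other groups, narrowly so for early mice, and bright collagen transcripts weigh much in them. In late against control mice 8 of the 10 were below 0, while Pdgfra (0.04) and Dcn (0.05) were not. In each comparison 0 of the 10 were called. The 13 measured markers of cycling cells, of 14 listed, summed to 9.23 to 10.55 in late, 9.69 to 9.88 in early and 10.44 to 10.96 in control mice, with Tyms under the floor on all arrays; the 10 tested all had values below 0 in late and in early mice against controls and 0 were called.

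Markers of satellite cells and myoblasts, all 12 measured, summed to 11.94 to 12.02 in late, 12.03 to 12.30 in early and 12.05 to 12.15 in control mice, with Chrd under the floor throughout. Myf6, the brightest of those tested, weighs most in these sums. It averaged 11.45 in late, 11.53 in early and 11.29 in control mice. Of the 10 tested, 2 were called lower in late against control mice, Mymk and Myog, a factor of differentiating myoblasts (-2.86 ± 0.39, adjusted p = 0.0359). There 7 of the 10 were below 0, with a median of -0.18. Mymk, which promotes the fusion of myoblasts, differed there by -2.60 ± 0.19. Its late arrays and those of early mice 1 and 3 lay under the floor of 5, so its differences and calls are a description only. Mymk was also the 1 marker of this list called lower in early against control mice, at the same age (-1.42 ± 0.19). There 7 of the 10 were below 0, with a median of -0.61. In late against early mice Myog (-2.41 ± 0.39, adjusted p = 0.0131) and Mymk (-1.18 ± 0.19) were called lower. Only 4 of the 10 were below 0 there, and the median was 0.16, so these 2 do not stand for the list. The 10 macrophage and leukocyte markers, of which Itgam lay under the floor, summed to 12.30 to 12.97 in late, 12.53 to 14.08 in early and 12.55 to 12.96 in control mice. Adipocyte markers (8 of 10 measured) summed to 14.23 to 15.22, 14.32 to 14.66 and 14.70 to 15.31 in the same order, endothelial markers (10 of 10) to 11.76 to 11.96, 11.40 to 11.78 and 11.76 to 12.12, and Schwann cell markers (6 of 8 measured, Mag under the floor) to 11.90 to 12.46, 11.40 to 11.72 and 12.18 to 12.56. The part of these cell types in the values of the imprinted genes was not tested.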

How the data were processed

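RNA from 100 mg of quadriceps per mouse was reverse transcribed from an oligo(dT) primer, biotin-labelled and hybridised to Affymetrix arrays, 1 per mouse, per the labels' protocols. The deposited values are log2 expression made by the authors with GCRMA, per the submitters' processing notes; how it was set is not given in the sources used here. GCRMA corrects background and makes arrays alike, so dim probe sets vary little and a shift of all genes would not be seen. The number of arrays, 3 per group, limits the precision.

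Of 45101 probe sets, 34945 named 1 gene in the platform annotation, 932 several and 9211 none; the remaining 13 were array control sets naming 1 gene and were left out. Those naming 1 gene and above a log2 value of 5 in at least 3 arrays (16048) were kept, and for each gene the set with the highest mean was taken, leaving 9697 genes. A model of 3 group means was fitted to all 9 arrays with limma 3.58.1 in R 4.3.3 and tested on simulated data; all adjusted p values are Benjamini-Hochberg values from limma over all genes, or over the 17953 passing probe sets where a probe set is named. A gene was called at an adjusted p under 0.05. Members and lists were chosen with earlier results of these data known. From each list up to 4 genes with the smallest p, and any called, could be named.

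Replicate numbers come from the labels, which do not say what they share. Deviations from the group means of same-numbered late and early arrays correlated at 0.168, 0.201 and 0.16 across genes. These numbers were read as pairing late and early arrays. For late and control (0.0847, -0.165 and -0.11) and early and control arrays (0.35, 0.11 and -0.0391) they were not. The main fit held no replicate block, so its late minus early p values ignore this pairing. A block was fitted only as an alternative, and its results against controls rest on no such pairing. Nothing in the labels says that replicates are separate litters, so p values cover the spread between these mice only. Other filters, probe set rules, scalings, spreads, a replicate block and leaving out each array were tried.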

Additional observations from a re-analysis of the deposited data

How the results depend on the processing

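With 3 arrays per group, the number of calls depended on single arrays and on the weighting. Leaving out each array in turn gave 5 to 59 genes called in late against control (20 with all arrays), 6 to 1756 in early against control (115) and 143 to 2959 in late against early (1119), and 0 to 1, 0 to 1 and 0 to 2 members called where 0 were. The highest gene counts (59, 1756 and 2959) all came without early mouse 3, and the lowest without control 1 or control 2 (5), control 2 (6) and late 2 (143). Array weights, whose estimation stopped before full convergence, gave 1037, 3335 and 3534 genes and 6, 2 and 5 members in the same order. In early against control the count was 56 without a filter, 61 with only the 2 groups compared and 62 with the replicate block. In late against control it was 12 with only the 2 groups and 12 without shared-probe sets, 5 with the block, and 1 member (Cdkn1c) was called with arrays centred, quantile normalization, floored values or a robust trend. In late against early it was 584 without a filter, 38 with only the 2 groups and 1794 over probe sets, and the block called 1 member, Cdkn1c; the block changed no other member call. No cause was tested. With 1 value per gene, all 9 late minus control differences and 8 of the 9 late minus early ones stayed below 0 under every alternative run. The exception was Grb10 in late minus early (0.0613 with array weights, -0.17 to 0.18 on leaving out 1 array). In early minus control the sign turned for Mest (0.0766 with weights, -0.59 to 0.0515 on leaving out 1 array). It also turned for Meg3 (-0.84 to 0.0545) and the Meg3 set 1436713_s_at (-0.61 to 0.27). Of the 20 passing probe sets, 19 were below 0 in late minus control, 16 in early minus control and 20 in late minus early. Above 0 were Peg3 1417356_at in late minus control (0.29) and, in early minus control, all 3 Peg3 sets and the dimmer Grb10 set (0.18). Dim late values limit the sizes of Mest and Dlk1 and of the Rian sets 1440001_at and 1428055_at.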

Other observations

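Some deposited values of the imprinted genes were equal between arrays to 4 decimals. The dimmer Grb10 probe set stood at 5.96 in late mouse 1, early mouse 1 and control mouse 1 alike, and the brightest Peg3 set at 9.95 in late mouse 1 and control mouse 1; the cause was not tested.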
